A study of Homo sapiens with 6 samples.

Results

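The 10 genes that encode the FOS, JUN and BATF proteins of the AP-1 transcription factor family were examined in MM.1S, a multiple myeloma cell line. They are FOS, FOSB, FOSL1, FOSL2, JUN, JUNB, JUND, BATF, BATF2 and BATF3, 10 of the 20033 protein-coding genes of GENCODE release 44, and they were chosen by name. Open chromatin was mapped by Omni-ATAC, in which a transposase cuts accessible DNA, in 3 libraries of cells given CB-6644 at 120 nM for 72 h and in 3 libraries of cells given DMSO, the vehicle. CB-6644 is an inhibitor of the ATPases RUVBL1 and RUVBL2, found in several chromatin remodelling complexes, and live cells were sorted before the assay. All libraries came from this 1 cell line, and nothing in the labels states that the replicates were separate cultures, so the p-values measure the spread between these libraries, which may be technical. The question was where chromatin was open at the AP-1 genes and whether it differed after the inhibitor.

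AP-1 is a dimer of basic leucine zipper proteins. JUN proteins pair with each other or with FOS proteins, while FOS proteins need a JUN partner, and the dimers bind the 7-base AP-1 site or the closely related cyclic AMP response element (CRE). BATF proteins lack the activation domains of FOS, pair with JUN proteins, and in lymphoid cells bind joint elements together with IRF4, a factor on which myeloma cells depend. FOS, FOSB, JUN and JUNB are textbook immediate early genes, switched on within minutes of a signal through MAP kinases, in part by serum response factor (SRF) at the CArG box.

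Peaks of the 6 libraries were merged where they overlapped by 1 bp or more, which gave 89196 regions. Each gene was described by its promoter, within 1000 bp of a start site, and by a window of the gene body and 50 kb on each side. In the text, the distance of a region from a gene runs from the region's edge to the nearest annotated start site of that gene. The lists held between 58563 and 79020 peaks, and 8 of 8 plasma cell marker promoters and 0 of 2 T cell marker promoters had a peak in all 6 libraries. CB-6644 replicate 2 and DMSO replicate 1 had shorter minimum peaks, of 65 and 91 bp, than the other 4 libraries, which had 131 to 152 bp. These 2 are called the short-fragment libraries. The name is inferred from the shortest peak of each list, and the labels do not state fragment length. Values from the other 4, called the long-fragment libraries, are given beside several results.

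The 10 windows held 118 regions, of which 70, or 59.3%, had a peak in all 6 libraries, against 47.2% of all regions. Another 4 regions were DMSO-only, meaning a peak in all 3 DMSO libraries and in no CB-6644 library, and 1 was CB-6644-only. These were 3.39% and 0.847% of the regions in the windows, beside 4.50% and 0.586% of all regions. The number of regions in a window ranged from 6 for BATF2 to 21 for JUNB. Of the 118 regions, 15 lay at a promoter of the 10 genes, 37 at the promoter of another protein-coding gene and 66 at no promoter of a protein-coding gene. The 3 CB-6644 libraries had 85, 124 and 90 peaks in the windows and the 3 DMSO libraries had 113, 100 and 92. The ranges overlapped, with means of 99.7 ± 21.2 and 101.7 ± 10.6 (SD, n = 3 each), and the two-sided exact permutation test of the means gave p = 0.9, where the smallest possible p is 0.1. The 124 peaks of CB-6644 replicate 2 were the most of any library, and its peaks were the shortest, with a median of 137 bp.

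**Figure D1:**
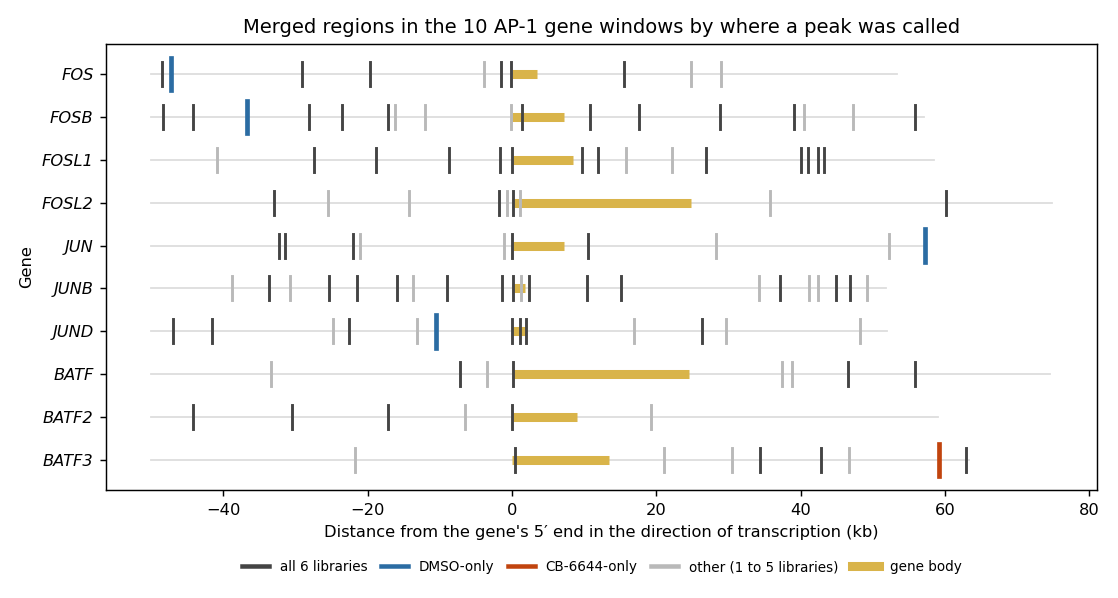
The 118 merged regions in the windows of the 10 AP-1 genes, each a vertical line at its middle, plotted as distance in kb from the 5′ end of the gene in the direction of transcription. Dark lines are the 70 regions called in all 6 libraries, blue the 4 DMSO-only regions, red the 1 CB-6644-only region and grey the other regions. None of the 5 group-only regions lies within 10 kb of a start site of the AP-1 gene of its window.

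All 10 genes had a promoter peak in all 6 libraries, as did 66.2% of protein-coding genes. The strength of a peak was expressed as its percentile of -log10 p among the peaks of its own library, where 100 is the strongest. It is a value at the summit of a peak and is not summed over the length of a gene. By the mean over 6 libraries the order was JUN (97.5 ± 0.717), JUND (95.6 ± 2.17), FOSB (94.1 ± 1.09), FOSL2 (92.5 ± 2.31), BATF3 (88.9 ± 2.81), FOSL1 (85.8 ± 4.45), JUNB (77.5 ± 8.06), FOS (72.1 ± 2.54), BATF (50.2 ± 10.6) and BATF2 (27.1 ± 10.1), each as the mean ± SD of n = 6. On this scale JUN was the highest promoter of the family and BATF2 the lowest. The order was another by fold enrichment over the local background, where BATF3 (20.5 to 30.6), FOSB (16.01 to 28.3) and FOSL1 (17.5 to 32.3) stood above JUN (13.7 to 23.1) in each of the 6 libraries and JUNB (5.36 to 13.2) was the lowest in 5 of the 6. Neighbours in the percentile order had overlapping ranges down to FOS. FOS, with a lowest value of 68.7, did not overlap BATF, whose highest value was 62.4, and BATF, with a lowest value of 36.4, stood just above BATF2, whose highest value was 36.3. The promoter regions had a median length of 990.5 bp and a median GC content of 68.9% around the summit, while all regions called in 6 libraries had medians of 532 bp and 54.7%.

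**Figure D2:**
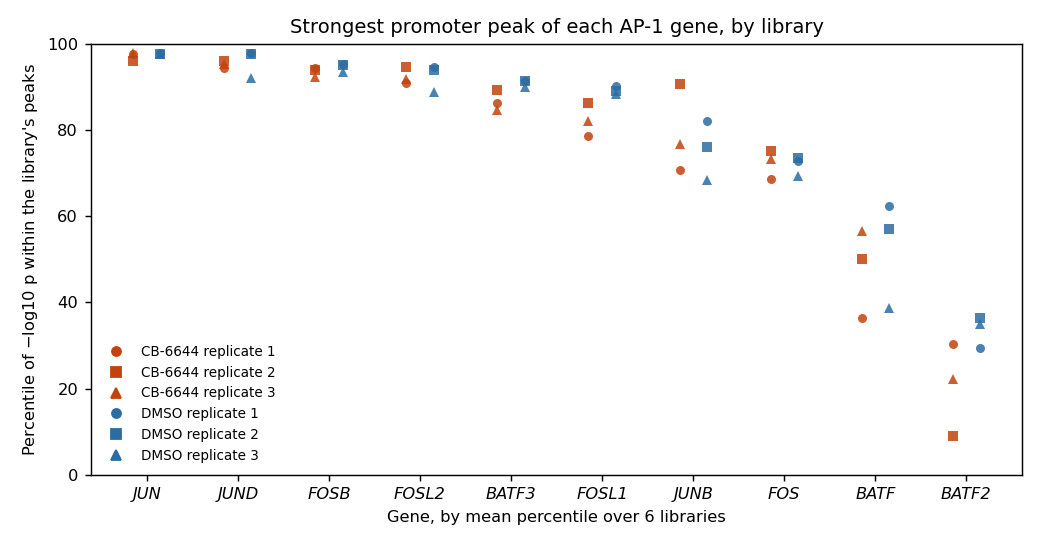
Percentile of -log10 p of the strongest promoter peak of each AP-1 gene within the peaks of its library, for 3 CB-6644 libraries (red) and 3 DMSO libraries (blue), with the symbol giving the replicate number. Genes are ordered by the mean, from JUN at 97.5 to BATF2 at 27.1, and the groups stand fully apart only at FOSL1 and BATF3.

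Among the FOS genes, FOS itself encodes the immediate early partner of JUN. Its promoter region, chr14:75278242-75279248 on hg38, reached percentiles of 68.7, 75.2 and 73.3 in the CB-6644 libraries and of 72.9, 73.4 and 69.4 in the DMSO libraries, so the groups overlapped. The strongest summit of the region lay upstream of the annotated start at 75278826. A CArG box, the element bound by SRF, began 52 bp from the summit. The sequence is shown because this classic element of the FOS promoter lay within 100 bp of the summit in these cells. The capitals mark, from the left, an E-box (CAGGTG), the CArG box and a MAF half-site (GTCAGCA, the reverse of TGCTGAC), on the plus strand of chr14:75278362-75278562.
FOS promoter summit: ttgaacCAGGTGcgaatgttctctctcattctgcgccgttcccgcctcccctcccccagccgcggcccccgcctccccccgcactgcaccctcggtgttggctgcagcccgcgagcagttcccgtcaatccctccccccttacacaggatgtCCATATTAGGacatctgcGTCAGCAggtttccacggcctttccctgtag
The FOS window also held a region 13.8 kb downstream of the nearest annotated FOS start site, which is not the one at 75278826. The percentiles of this region, chr14:75293974-75294611, were 90.9 to 95.7, above those of the promoter itself in all 6 libraries. A second CArG box lay within 100 bp of its summit.

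FOSB, a close relative of FOS, had 2 promoter regions. The stronger, chr19:45468915-45469910 within the gene, had percentiles of 94.4, 93.9 and 92.4 with CB-6644 and of 95.4, 95.03 and 93.4 with DMSO. The other ended 1 bp before the start site, at chr19:45467585-45467994, and was weak. Its fold enrichment was 5.05 and 4.66 in CB-6644 replicates 1 and 3 and 4.38, 4.76 and 3.63 in the DMSO libraries, with no peak called in CB-6644 replicate 2. It is shown because it was the only region of the windows with both a CRE (TGACGTCA) and a CArG box, which are in capitals in that order on the plus strand of chr19:45467654-45467794.
FOSB start-site region: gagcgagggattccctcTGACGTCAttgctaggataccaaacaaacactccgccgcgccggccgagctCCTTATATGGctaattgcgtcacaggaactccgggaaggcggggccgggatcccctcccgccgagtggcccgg
FOSL2, which encodes FRA2, had a promoter region at chr2:28392108-28393140 with percentiles of 90.8, 94.7 and 92.0 with CB-6644 and of 94.6, 93.9 and 88.9 with DMSO. A small region 0.587 kb upstream of a start site was called in 5 libraries but not in CB-6644 replicate 1. Another, 0.537 kb from a start site, was called in DMSO replicates 2 and 3 alone, at percentiles of 4.93 and 1.10.

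The JUN genes encode the partners that every AP-1 dimer needs. The JUN promoter region, chr1:58783344-58784701, had percentiles of 97.8, 96.1 and 97.9 with CB-6644 and of 98.0, 97.6 and 97.8 with DMSO, and the groups overlapped. A second region 0.951 kb upstream was called in CB-6644 replicate 3 and DMSO replicates 1 and 2, at percentiles of 6.99, 14.2 and 10.4. A close variant of the CRE, TGACATCA, lies upstream of the JUN start site and is known for binding of JUN and ATF2 dimers. The 120 bases before the RefSeq start site are shown with that site in capitals (GRCh38.p14, chr1:58784048-58784167, minus strand). Among all 35116 RefSeq promoters of 300 bases, 2.61% held this site.
JUN upstream sequence: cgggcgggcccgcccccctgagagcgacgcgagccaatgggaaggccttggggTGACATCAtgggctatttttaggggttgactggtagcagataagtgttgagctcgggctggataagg
JUND, which is expressed more steadily than FOS or JUN in most cells, had its strongest promoter region at chr19:18281193-18282177, with percentiles of 94.5, 96.0 and 95.4 with CB-6644 and of 97.9, 97.6 and 92.1 with DMSO. A second promoter region, chr19:18280134-18280759 within the gene, was called in all 6 libraries at percentiles of 59.8 to 69.9. A CRE stood near the summit of the stronger one and is in capitals below (plus strand, chr19:18281738-18281838). A CRE was in 1.85% of RefSeq promoters.
JUND promoter summit: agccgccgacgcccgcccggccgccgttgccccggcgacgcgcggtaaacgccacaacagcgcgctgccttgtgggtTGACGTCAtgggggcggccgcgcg
JUNB varied more. Its promoter region, chr19:12791298-12791834, had percentiles of 70.8, 90.7 and 76.9 with CB-6644 and of 82.0, 76.1 and 68.5 with DMSO. The highest value of each group came from its short-fragment library.

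BATF, which pairs with JUN proteins and takes part in lymphocyte differentiation, had a promoter region of moderate strength at chr14:75522379-75522907. Its percentiles were 36.4, 50.1 and 56.5 with CB-6644 and 62.4, 57.1 and 38.8 with DMSO. BATF2, an interferon-inducible member, had the weakest promoter, chr11:64996735-64997248, with percentiles of 30.5, 9.12 and 22.3 with CB-6644 and of 29.4, 36.3 and 35.1 with DMSO. The pile-up under its summit, the number of overlapping tags recovered from the authors' scores, was only 24, 7 and 22 with CB-6644 and 18, 32 and 31 with DMSO. Its mean difference between the groups, -12.9 percentile points, was the largest in size of the 10 genes, but the ranges overlapped (two-sided exact permutation test, p = 0.2, smallest possible 0.1). By Euclidean distance over the 6 percentiles, the promoters most like that of BATF2 among 13262 genes were those of POU3F3, CRHR1 and C10orf71, at 9.98, 10.9 and 12.3 percentile points.

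By percentile, the promoters of FOSL1 and BATF3 were lower in every CB-6644 library than in every DMSO library, and no promoter was higher in every CB-6644 library. This made 2 of 10 genes lower and 0 of 10 higher. Among the 13263 protein-coding genes with a promoter peak in all 6 libraries, 17.0% were lower in this sense and 1.78% higher, so the share of the AP-1 genes was near the background. FOSL1 encodes FRA1, a FOS relative without a strong transactivation domain. Its promoter region, chr11:65900333-65900775, had percentiles of 78.8, 86.4 and 82.2 with CB-6644 and of 90.2, 89.0 and 88.4 with DMSO. BATF3, known for its part in the development of cross-presenting dendritic cells, had percentiles of 86.3, 89.2 and 84.7 with CB-6644 and of 91.5, 91.5 and 90.0 with DMSO at chr1:212698920-212699935. The mean differences were -6.75 and -4.27 percentile points, and the exact permutation test gave its smallest possible p of 0.1 for both. By fold enrichment as deposited, the groups overlapped at both promoters. The median difference over the 10 genes was -0.805 percentile points, and over all protein-coding genes it was -1.03. Without DMSO replicate 3, 5 of the 10 genes were lower in every CB-6644 library, as were 28.2% of all genes, and in the 4 long-fragment libraries 3 of the 10, against 36.7% of all.

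To compare the strength of single regions, fold enrichment over the local background was quantile-normalized across libraries and tested with limma at the 42089 regions called in all 6 libraries, with p-values adjusted over all of them by the Benjamini-Hochberg method. Only 70 of the 118 regions in the windows could enter this fit. One of the 70 was higher after CB-6644 and 0 were lower, while among all regions tested 0.513% were higher and 0.461% lower. At an unadjusted p below 0.05 there were 6 of the 70 regions, 3 lower and 3 higher, or 8.57%, against 14.7% of all regions. The median difference was 0.08 log2 units over the 70 regions and 0.02 over all regions, and 22 of the 70, or 31.4%, were below 0, against 46.3% of all. By window, the median difference ran from -0.03 over 4 regions for BATF to 0.20 over 12 regions for FOSL1, and 0 of the 5 JUN regions but 4 of the 7 JUND regions were below 0. Without CB-6644 replicate 2 the median was -0.0056 over the 70 regions, and 35 of them were below 0, against 48.6% of all. In the 4 long-fragment libraries 32 of the 70 were below 0 and the median was 0.03. With the percentile of -log10 p in place of fold enrichment, limma called the same 1 region higher and 0 lower, where 1.38% of all regions were higher and 6.52% lower.

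The region past the test lay 1.56 kb upstream of the FOSL1 start site at chr11:65902129-65902431, between protein-coding genes and outside the promoter as defined here. Its fold enrichment as deposited was 12.7, 11.2 and 9.45 in the CB-6644 libraries and 6.48, 4.80 and 5.25 in the DMSO libraries. The groups did not overlap. After quantile normalization the difference was 1.13 ± 0.16 (SE) log2 units, a ratio of 2.20, with an adjusted p of 0.0349 by limma. The percentiles were 63.9, 51.03 and 50.2 with CB-6644 and 23.9, 14.2 and 17.6 with DMSO. The pile-up at the summit was 77, 29 and 74 tags with CB-6644 and 32, 39 and 42 with DMSO, and the local background was 5.13, 1.68 and 6.94 against 4.10, 7.33 and 7.20 tags. The difference was 1.08 ± 0.18 (adjusted p = 0.0264) in the 4 long-fragment libraries. Leaving out single libraries kept the difference between 1.05 and 1.28, but it passed the test only without CB-6644 replicate 2 and not without any of the other 5 libraries, where the adjusted p by limma ranged from 0.0949 to 0.208. In those 5 fits 0 regions of the whole genome were called, with 3871 to 5989 at an unadjusted p below 0.05.

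At the FOSL1 promoter, whose nearest edge is 1.35 kb away, the difference had the opposite sign, at -0.30 ± 0.13 (adjusted p = 0.353 by limma). Fold enrichment there was 17.5, 27.8 and 19.1 with CB-6644 and 32.3, 25.2 and 23.1 with DMSO, so the deposited values overlapped through CB-6644 replicate 2. The other 10 regions of the FOSL1 window that were tested lay between -0.30 and 0.27 and did not pass the test. The sequence around the summit of the upstream region is shown because it was the only region past the test (plus strand, chr11:65902093-65902293). It held none of the motifs searched, so no letters are in capitals.
FOSL1 upstream region: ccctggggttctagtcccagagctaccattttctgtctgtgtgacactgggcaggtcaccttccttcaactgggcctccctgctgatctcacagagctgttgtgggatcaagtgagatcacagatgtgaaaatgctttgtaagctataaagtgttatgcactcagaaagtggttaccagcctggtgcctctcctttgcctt

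**Figure D3:**
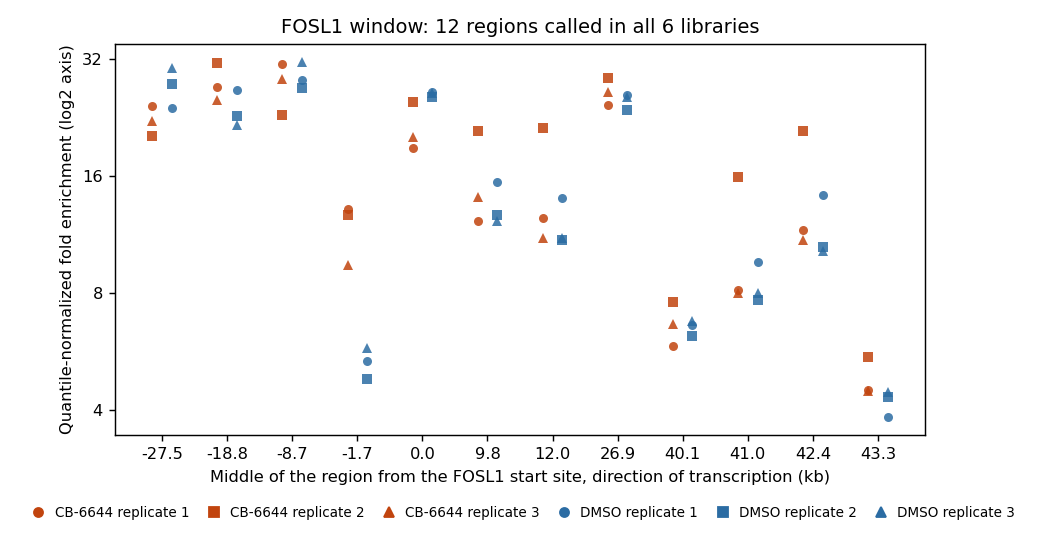
Quantile-normalized fold enrichment on a log2 axis at the 12 regions of the FOSL1 window called in all 6 libraries, ordered by the distance in kb of their middle from the FOSL1 start site, for 3 CB-6644 libraries (red) and 3 DMSO libraries (blue). At -1.7 kb the CB-6644 libraries lie between 9.48 and 13.2 and the DMSO libraries between 4.83 and 5.80, and this is the only region of the 12 past the test.

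The next largest positive differences, named as a description, were 0.68 ± 0.30 (adjusted p = 0.348) at the ERCC1 promoter region chr19:45419486-45419746 in the FOSB window and 0.35 ± 0.13 (adjusted p = 0.284) at chr14:75568824-75569251, 46.3 kb from a BATF start site. ERCC1 encodes a DNA repair endonuclease subunit. The fold enrichment at its region was 10.5, 22.5 and 10.3 with CB-6644 and 12.3, 7.61 and 6.87 with DMSO, the highest value of each group being its short-fragment library. With a term for the fragment-length set in the limma fit, this region passed as well (adjusted p = 0.028), which made 2 of 70 higher and 0 lower, beside 3.39% higher and 4.01% lower among all regions. The 3 most negative differences were -0.37 ± 0.15 at chr19:12757550-12758138 over BEST2, -0.32 ± 0.13 at chr19:12836333-12836579 at the RTBDN promoter, both in the JUNB window, and -0.31 ± 0.27 at the BATF2 promoter, with adjusted p of 0.324, 0.324 and 0.639 by limma.

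**Figure D4:**
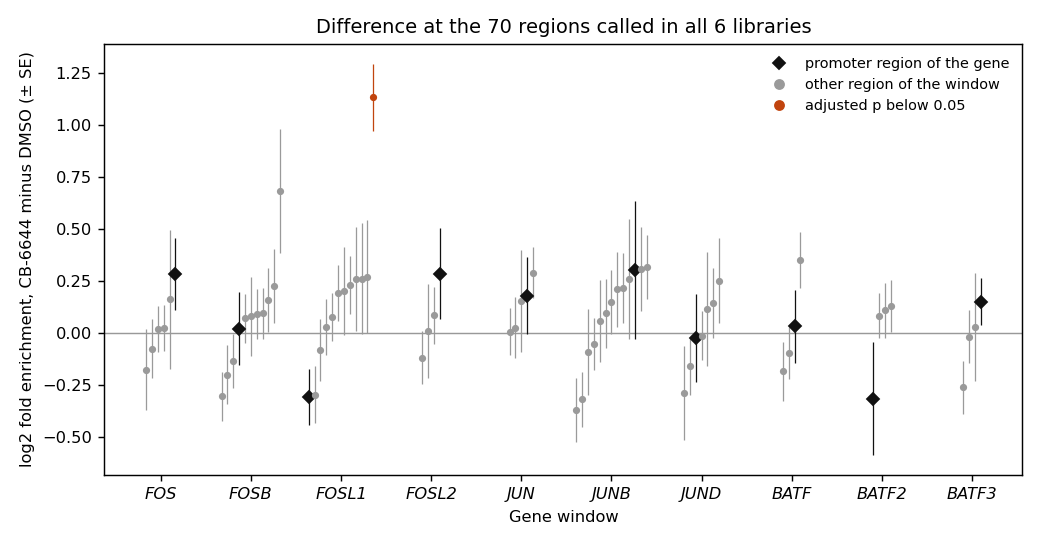
Difference in log2 fold enrichment, CB-6644 minus DMSO, with its standard error from limma, at the 70 regions called in all 6 libraries, grouped by gene window. Diamonds are the promoter regions of the 10 genes, between -0.31 and 0.30, and the red point at 1.13 upstream of FOSL1 is the only region with an adjusted p below 0.05.

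By limma, none of the 10 promoter regions differed past the threshold. The differences in log2 units were 0.29 ± 0.17 for FOS, 0.02 ± 0.18 for FOSB, 0.29 ± 0.22 for FOSL2, 0.18 ± 0.18 for JUN, 0.30 ± 0.33 for JUNB, -0.02 ± 0.21 for JUND, 0.03 ± 0.18 for BATF and 0.15 ± 0.11 for BATF3, with adjusted p between 0.51 and 0.973. At BATF3 the sign was thus opposite to that of its percentiles. The signs at FOSB, JUNB, JUND and BATF turned under at least 1 other scaling or choice of libraries. Without CB-6644 replicate 2, the differences shrank to 0.09 for FOS, 0.046 for FOSL2, 0.0082 for JUN and -0.029 for BATF2.

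The 5 group-only regions were 10.1 kb or more from the start sites of the AP-1 genes whose windows held them. The DMSO-only region of the FOS window, chr14:75231377-75231704, lay 47.1 kb upstream of FOS between protein-coding genes, with percentiles of 54.4, 43.9 and 36.6 and pile-ups of 43, 52 and 45 tags. It was the strongest of the 4 DMSO-only regions. In the FOSB window, chr19:45431088-45431316 fell in an intron of ERCC1, 36.7 kb from FOSB, at percentiles of 36.1, 37.8 and 30.4. The JUN window held chr1:58726632-58726898, 57.1 kb downstream of the JUN start site and nearer to MYSM1, a histone deubiquitinase gene, at percentiles of 23.7, 33.3 and 21.1. In the JUND window, chr19:18291704-18292497 lay 10.1 kb upstream of JUND and was weak, at percentiles of 5.06, 12.5 and 10.1 and pile-ups of 14, 24 and 22 tags. The CB-6644-only region, chr1:212640548-212640733 in the BATF3 window, was 46.8 kb from the nearest BATF3 start site and was nearest to GARIN4. It had percentiles of 15.6, 7.73 and 5.31 and a fold enrichment of 5.79, 5.76 and 4.51. All but the FOS and FOSB regions were thus at percentiles of 33.3 or less in their libraries.

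Because these regions were called in 1 group alone, 101 bases around the strongest summit of 4 of these regions are given on the plus strand, from chr14:75231444-75231544, chr1:58726750-58726850, chr19:18292262-18292362 and chr1:212640612-212640712 in turn. None of the 5 regions held a match to any of the motifs searched within 100 bp of the summit, so no letters are in capitals. The motifs are those named in the next paragraph.
FOS window, DMSO-only: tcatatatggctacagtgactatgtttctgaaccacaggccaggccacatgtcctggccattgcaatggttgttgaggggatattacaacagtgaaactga
JUN window, DMSO-only: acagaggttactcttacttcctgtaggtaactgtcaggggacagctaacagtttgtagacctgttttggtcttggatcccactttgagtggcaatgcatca
JUND window, DMSO-only: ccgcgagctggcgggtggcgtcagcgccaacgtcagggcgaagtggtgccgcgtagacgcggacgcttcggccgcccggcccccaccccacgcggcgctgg
BATF3 window, CB-6644-only: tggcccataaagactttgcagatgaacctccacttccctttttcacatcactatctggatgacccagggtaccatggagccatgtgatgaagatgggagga

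The 201 bases centred on the highest summit of each region were searched on both strands for sites that these proteins or their known partners bind. The AP-1 site TGANTCA was in 9 of 118 regions, or 7.63% (95% Wilson interval 4.06 to 13.9%), and in 10.5% of all regions. The CRE was in 4 regions, or 3.39% (1.33 to 8.39%), against 0.664% of all, and the CArG box in 5, or 4.24% (1.82 to 9.54%), against 1.11%. Within 50 bp of the summit each was in 2 of 118, or 1.69% (0.466 to 5.97%), against 0.470% and 0.533%, inside the interval. In regions called in all 6 libraries each was in 3 of 70, or 4.29% (1.47 to 11.9%), against 1.12% and 0.965%. The IRF site GAAANNGAA was in 4.24% against 13.7%, the MAF site TGCTGAC in 8.47% against 5.31%, the E-box CAGGTG in 23.7% against 27.7% and the ATF4-CEBP site TGATGNAA in 2.54% against 3.98%. The site TGACATCA was in 1.69% against 1.501%. The joint BATF-IRF elements, GAAA directly before TGANTCA or TTTC and 4 bases before TGANTCA, were in 0 of the 118 regions and in 0.283% and 0.230% of all. A joint element contains an AP-1 site, so those counts are nested. The regions of the windows called in all 6 libraries had a median GC content of 69.2% around the summit, against 54.7% for all such regions. Its bearing on these shares was not tested. The intervals cover counting error only, and a match is a run of letters and not a measured binding site.

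The 9 regions with an AP-1 site differed in how they were called. The FOSL2 promoter region was among the strongest, while the sites 40.9 kb from FOSL1 and 24.7 kb from JUND were in regions called in CB-6644 replicate 2 alone. The region 21.7 kb upstream of JUN, chr1:58805772-58806450, had overlapping percentiles of 45.9, 42.2 and 45.0 with CB-6644 and of 42.6, 48.5 and 45.0 with DMSO. Its quantile-normalized fold enrichment did not overlap, at 13.0, 12.8 and 11.8 against 9.25, 10.6 and 11.02, a difference of 0.29 ± 0.12 log2 units with an adjusted p of 0.324 by limma. Another region in the FOSB window, 27.9 kb from FOSB, ran from 30.5 to 56.9 and overlapped between the groups. One more region, 12.03 kb from FOSB, was called in CB-6644 replicates 2 and 3 and in DMSO replicate 1.

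Another 3 regions with an AP-1 site differed in calls or percentiles between the groups. They were picked out after their values were seen and were not in the limma fit, since each lacked a peak in at least 1 library, so the difference was not tested. The region 13.0 kb upstream of JUND, chr19:18294668-18294854, was stronger with CB-6644, at percentiles of 83.1, 94.1 and 79.8 against 70.6 and 49.1 with DMSO and no peak in DMSO replicate 3. Its pile-ups were 107, 101 and 112 tags with CB-6644 and 62 and 53 with DMSO. It lies 2.17 kb from the DMSO-only region of the same window. The region 21.5 kb upstream of BATF3, chr1:212721359-212721786, was weaker with CB-6644, at percentiles of 3.93 and 6.27 with no peak in replicate 2, against 32.9, 17.4 and 16.6 with DMSO. The region 37.3 kb from a BATF start site, chr14:75559829-75560062, had no peak in any CB-6644 library and percentiles of 9.53 and 19.5 in DMSO replicates 2 and 3. These 3 sites and the one near JUN are shown with the AP-1 match in capitals, on the plus strand, from chr19:18294730-18294810, chr1:212721688-212721768, chr14:75559918-75559998 and chr1:58806015-58806095 in turn.
JUND 13.0 kb: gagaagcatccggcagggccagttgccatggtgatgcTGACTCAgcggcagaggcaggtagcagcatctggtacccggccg
BATF3 21.5 kb: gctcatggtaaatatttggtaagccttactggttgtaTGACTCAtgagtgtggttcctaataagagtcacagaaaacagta
BATF 37.3 kb: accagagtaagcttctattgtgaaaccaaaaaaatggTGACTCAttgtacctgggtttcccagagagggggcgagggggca
JUN 21.7 kb: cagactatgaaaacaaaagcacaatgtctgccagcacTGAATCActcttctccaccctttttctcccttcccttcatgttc

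**Figure D5:**
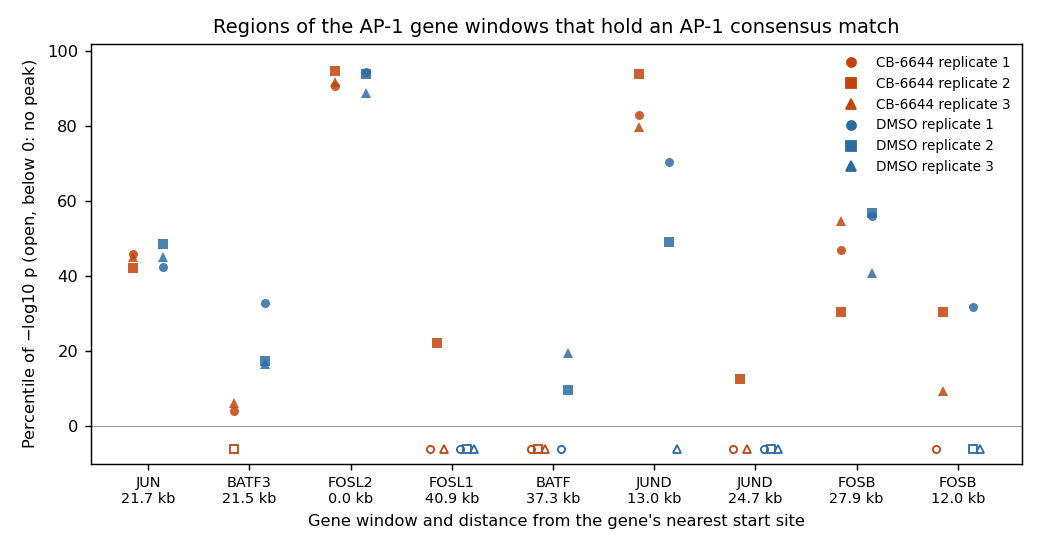
Percentile of -log10 p in each library at the 9 regions of the windows with an AP-1 consensus match, labelled by gene and distance from its nearest start site, for CB-6644 (red) and DMSO (blue). Open symbols below 0 mark libraries with no peak, and the region 13.0 kb from JUND is at 79.8 to 94.1 in the CB-6644 libraries and at 70.6 or less in the DMSO libraries.

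The pathway around AP-1 was followed in 15 further genes: the partners JDP2, ATF2, ATF3 and ATF7, the IRF factors IRF4 and IRF8, the CArG-box factors SRF, ELK1 and ELK4, and the kinases MAPK3, MAPK8, MAPK9, MAPK14, MAP2K4 and MAP2K7. All 15 had a promoter peak in all 6 libraries. Their windows held 143 regions, of which 84 were called in all 6 libraries, 4 were DMSO-only and 2 CB-6644-only, and 0 of the 84 were lower and 0 higher by limma, with 3 at an unadjusted p below 0.05. Over all regions, 4.50% were DMSO-only and 0.586% CB-6644-only, 0.461% were lower and 0.513% higher, and 14.7% had an unadjusted p below 0.05. With the fragment-length term 1 of the 84 was lower and 1 higher, and in the 4 long-fragment libraries 0 were lower and 2 higher, where 3.03% and 2.54% of all regions were. Of the 4 DMSO-only regions 3 were in the IRF4 window and 1 in the ATF2 window, and the 2 CB-6644-only regions were in the ATF3 and IRF4 windows. The ATF3 window overlapped that of BATF3, and its CB-6644-only region was the one given above for BATF3. The JDP2 window likewise overlapped that of BATF and held the BATF promoter region, so shared regions were counted in both sets. The 4 pathway promoters that did not overlap between the groups were picked out after their values were seen. The IRF4 promoter was at percentiles of 59.2, 55.1 and 73.5 with CB-6644 and of 82.9, 81.2 and 86.2 with DMSO. The promoter of JDP2, an AP-1 repressor, was at 18.8, 20.1 and 24.9 against 36.4, 35.4 and 31.2. That of ATF3, a stress-induced factor, was at 97.8, 95.02 and 97.9 against 98.6, 98.7 and 99.3. MAP2K7, the kinase upstream of JNK, was higher in every CB-6644 library, at 88.8, 88.5 and 90.6 against 82.5, 85.1 and 79.0. They made 3 of 15 lower and 1 of 15 higher, beside the 17.0% and 1.78% of all genes given above. By limma on fold enrichment, the promoter regions differed by -0.24 log2 units for IRF4, 0.08 for JDP2, 0.16 for ATF3 and 0.29 for MAP2K7. None of these passed the test, and the signs at JDP2 and ATF3 were opposite to those of their percentiles.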

How the data were processed

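The 6 Omni-ATAC libraries were grouped by their titles. The submitters' processing notes name Bowtie2 2.4.2, MACS3 3.0 and the hg38 build, and the authors called peaks library by library. The deposited lists hold, for each peak, the fold enrichment of the pile-up over the local background, a ratio, and its -log10 p and -log10 q at the summit, as the authors' peak caller gave them, without scaling between libraries. They hold no read counts, so the study's own count test was not repeated and the depth of a library was not known. The lowest background per kb of shortest peak stood in for it. It was 5.67, 3.20 and 7.05 tags in CB-6644 replicates 1 to 3 and 6.40, 9.08 and 8.09 in DMSO replicates 1 to 3. The groups overlapped, but the mean was higher in DMSO. Whether this bears on the DMSO-only calls or on the percentiles was not tested.

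Peaks of the 22 autosomes, X and Y were merged at an overlap of 1 bp, and GENCODE release 44 gave the protein-coding genes. Other gene types were not used to label regions. The pile-up and background of each peak were solved from fold and -log10 p under a Poisson model, which 100% of peaks matched at a relative tolerance of 0.0001. A region took the highest fold among its peaks in a library. Quantile-normalized log2 fold was fitted with limma 3.58.1 in R 4.3.3, group as the only term, and Benjamini-Hochberg adjustment over 42089 regions at 0.05. Tested on simulated data for this comparison over 42089 regions, the fit called 42 and 39 of 50 regions changed by -2 and 2 log2 units, and 14 and 22 of 50 changed by -1 and 1, with 5 false calls. The simulated noise was independent between libraries and left out the correlation of the short-fragment libraries. These rates may therefore not hold for the real libraries. With 3 libraries a group, exact permutation tests cannot go below 0.1. Scripts ran in Python 3.11.15 (pandas 2.3.3, scipy 1.17.1, numpy 2.4.6) with plots by matplotlib 3.10.9. Sequences came from hg38 and, for 8 of the 10 genes, from RefSeq promoters (GRCh38.p14). FOSL1 and BATF3 had no RefSeq entry in the table used. No peak ran past a chromosome end.

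The genes, lists and rules were chosen with earlier results of these data known. The text names all 10 promoters, every group-only region, every region past the test, the 3 largest differences in each direction, and the 3 genes closest to the member with the largest promoter difference. The 3 AP-1-site regions and the 4 pathway promoters given with their values were added after their values were seen. One gene of the list as first fixed and some sequences are not reported here.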

Additional observations from a re-analysis of the deposited data

How the results depend on the processing

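Over the results that answer a comparison, 75 of 99 alternatives left counts within 1.5 times of the main value, the AP-1 share inside its interval, and the difference in peaks per library below 0 and without a call. The promoter count fell from 10 to 6 with the 20000 strongest peaks of each list. The 4 DMSO-only regions became 2 with equal numbers of peaks, 0 with the 20000 strongest, 8 of 118 when 2 of 3 libraries sufficed (2.47%, 2.79% and 9.05% of all regions), 1 in windows of 20 kb and 9 in the 4 long-fragment libraries, where 9.21% of all regions were DMSO-only. The CB-6644-only region was lost, leaving 0, when a peak had to cover 50% of a region and in windows of 20 kb. The difference in peaks per library was -2 and turned to 7.67 with equal numbers of peaks, while it was -8.50 in the long-fragment libraries. Without single libraries it ranged from -14.2 to 5.33, and the rise came without CB-6644 replicate 1 (5.33), CB-6644 replicate 3 (2.83) or DMSO replicate 1 (3.67). Promoters lower in every CB-6644 library went from 2 to 1 by the percentile of fold enrichment, where 6.38% of all genes were lower. Without single libraries they ranged from 2 to 5, where 19.6% to 31.0% of all genes were lower. Promoters higher went from 0 to 1 when ranked among regions called in all 6 libraries. For that ranking the share over all genes was not computed.

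The count of 1 region higher by limma became 2 with a fragment-length term and in the long-fragment libraries (3.39% and 2.54% of all regions) and 0 among regions above the median fold, which leave the region upstream of FOSL1 out. Without single libraries it was 0 to 1. It was also 0 with the replicate block, where 0 regions of the genome passed limma, with 4733 at an unadjusted p below 0.05, and the region upstream of FOSL1 had an adjusted p of 0.166. The deviations of same-numbered libraries correlated at -0.48, -0.33 and 0.33. The highest correlation, 0.57, was between CB-6644 replicate 2 and DMSO replicate 1, the short-fragment libraries. These values therefore cannot decide whether same-numbered libraries were paired. The count lower stayed at 0. The AP-1 share was 5.93% within 50 bp of the summit and 4.29% in regions called in all 6 libraries, inside its interval. Promoter differences turned at FOSB (-0.044 in the long-fragment libraries, and -0.13 to 0.16 without single libraries), JUNB (-0.010 and -0.11 to 0.52), JUND (0.0053 by median centring, and -0.23 to 0.10) and BATF (-0.00041 by median centring, and -0.10 to 0.15), with adjusted p by limma far from the threshold. The causes were not tested.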
